A study of Mus musculus with 6 samples.

Results

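Steroid hormone receptors were measured by RNA-seq in cancer-associated fibroblasts, the matrix-making stromal cells of a tumour, sorted from mammary tumours of mice. The rows of the count table named Esr1, Gper1, Pgr, Nr3c1 and Nr3c2 were taken, and all 5 were present among 18197 gene symbols and among the 16543 genes with enough counts to be tested. The receptors were chosen by symbol with their values in this same mPGES-1 KO against WT comparison known, so those values are given as a description without a test. All mice carried tumours induced by the polyoma middle T oncogene (PyMT) on a C57BL/6 strain, and tumours were harvested at 16 to 20 weeks. By label, 3 libraries came from mPGES-1 KO mice, which lack microsomal prostaglandin E synthase-1, an enzyme that makes prostaglandin E2, and 3 from WT mice. They are called KO-labelled and WT-labelled here. The labels name neither the promoter of the oncogene nor the surface markers of the sort, and they do not say whether each library is a separate animal, so the spread behind each p-value is that of these 6 libraries and may be technical.

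Esr1 (oestrogen receptor alpha), Pgr (progesterone receptor), Nr3c1 (glucocorticoid receptor) and Nr3c2 (mineralocorticoid receptor) encode transcription factors that bind their hormone inside the cell, leave a chaperone complex and act on DNA response elements. Gper1 encodes a receptor of another family, a G protein-coupled receptor that answers to oestrogen at membranes and signals through cAMP and transactivation of the EGF receptor. In the mammary gland, oestrogen and progesterone receptors mark hormone-sensing luminal cells, and Pgr is a classical target of oestrogen receptor alpha. Glucocorticoid receptor is present in most cell types, fibroblasts included. The mineralocorticoid receptor is best known from sodium-transporting epithelia and from the cardiovascular system.

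The promoter windows of Gper1, Esr1 and Pgr are shown because Gper1 was the receptor with 0 counts in one genotype, and Esr1 and Pgr are a receptor and its classical target. Each runs 5′ to 3′ on the plus strand of GRCm38.p6 (RefSeq), from 250 bases before to 50 bases after an annotated start, and capitals mark the motif matches described after them. The Gper1 window is chr5:139422929-139423228, the Esr1 window chr10:4611739-4612038 and the Pgr window chr9:8899583-8899882.
Gper1: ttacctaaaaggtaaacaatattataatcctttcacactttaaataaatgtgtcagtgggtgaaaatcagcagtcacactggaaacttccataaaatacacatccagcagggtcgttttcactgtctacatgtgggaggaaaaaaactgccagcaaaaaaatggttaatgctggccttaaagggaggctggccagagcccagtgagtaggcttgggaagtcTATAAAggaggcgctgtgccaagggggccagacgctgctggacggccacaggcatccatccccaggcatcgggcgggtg
Esr1: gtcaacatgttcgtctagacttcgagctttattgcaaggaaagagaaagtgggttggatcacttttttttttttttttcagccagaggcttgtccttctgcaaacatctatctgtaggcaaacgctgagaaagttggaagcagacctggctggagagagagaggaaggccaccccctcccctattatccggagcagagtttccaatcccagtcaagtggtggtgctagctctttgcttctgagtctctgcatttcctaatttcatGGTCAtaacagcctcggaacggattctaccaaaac
Pgr: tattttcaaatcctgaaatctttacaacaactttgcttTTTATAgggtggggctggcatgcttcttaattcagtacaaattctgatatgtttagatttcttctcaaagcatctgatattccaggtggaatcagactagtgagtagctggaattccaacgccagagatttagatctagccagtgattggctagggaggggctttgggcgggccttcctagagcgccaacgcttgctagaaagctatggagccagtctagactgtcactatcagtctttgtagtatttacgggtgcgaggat

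Windows of 4 of the 5 receptors, all but Nr3c1, were searched on both strands for the oestrogen half-site GGTCA, the glucocorticoid-type half-site TGTTCT, the full element of each (the half-site and its inverted repeat, 3 bases apart), the TATA letters TATAAA and the cAMP response element TGACGTCA. The half-sites lie inside the full elements. The Gper1 window held TATAAA with its first base at position -29 from the RefSeq start and none of the other 5 motifs. The gene start in GENCODE M21, a second annotation, is 139423151, upstream of the RefSeq start and within the TATAAA letters. The Pgr window held the same letters on the other strand, first base at -212. The first Esr1 window held an oestrogen half-site at position 16, a second Esr1 start further along the gene held no match, and the Nr3c2 window held 2 half-sites. Of 32851 such windows genome-wide, 13.6% held TATAAA, 40.5% the oestrogen half-site, 19% the glucocorticoid half-site, 1.79% the cAMP element, 0.07% the full oestrogen element and 0.00913% the full glucocorticoid element. A match describes letters in this window and nothing about occupancy.

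Total counts ran from 23013498 to 37249186 in KO-labelled libraries and from 37432510 to 43648450 in WT-labelled libraries. Ptges, which encodes mPGES-1, had 186, 137 and 129 CPM (counts scaled to library size, with TMM factors) in KO-labelled libraries and 31.9, 19.2 and 27.9 CPM in WT-labelled libraries (edgeR log2 fold change 2.51 ± 0.31 SE, adjusted p = 0.0171, and 0.0881, 0.0658 and 0.0752 without KO-labelled replicate 2, KO-labelled replicate 3 and WT-labelled replicate 2). The targeted gene thus went against the labels' direction. A count over the whole gene cannot show which exons were read, so every direction given here rests on the labels. The labelled cell type was checked against markers: the summed level of 11 fibroblast markers was 6346 to 17836 CPM in KO-labelled libraries and 9248 to 27528 CPM in WT-labelled libraries, and Pdgfra, a receptor of fibroblasts, was at 101 ± 44.7 CPM in KO-labelled and 93.4 ± 67.4 CPM in WT-labelled libraries (SD, n = 3 each). Of the 11, 8 had a negative log2 fold change (median -1.02). Col1a1, a collagen chain, was at 688 ± 453 CPM in KO-labelled and 3897 ± 2765 CPM in WT-labelled libraries without overlap (SD, n = 3 each; edgeR adjusted p = 0.1). Thy1, a surface protein of many fibroblasts, was the 1 marker of the 11 that passed, lower at 22.9 ± 11.8 CPM in KO-labelled and 213 ± 54.8 CPM in WT-labelled libraries (SD, n = 3 each; edgeR log2 fold change -3.22 ± 0.44 SE, adjusted p = 0.0184). The same libraries also held 37520 to 53076 CPM (KO-labelled) and 7421 to 13668 CPM (WT-labelled) of 17 luminal epithelial markers. Of the 17, 8 rose and none fell by edgeR's test (1.2% of all tested genes rose and 1.56% fell), and 16 had a positive log2 fold change and 1 a negative. Csn3, Krt18 and Epcam were the most abundant by the mean of all 6 libraries. Csn3, at 22556 ± 8435 CPM in KO-labelled and 5685 ± 2554 CPM in WT-labelled libraries, did not pass (SD, n = 3 each, edgeR adjusted p = 0.0667). None of these marker calls passed without KO-labelled replicate 2, without KO-labelled replicate 3 or without WT-labelled replicate 2. In those fits 0, 0 and 1 genes of the whole table passed. Fibroblast and epithelial RNA were present side by side in all 6. The summed markers of basal epithelium (98.0 to 229 and 47.7 to 139 CPM), endothelium (12.9 to 99.0 and 23.6 to 92.9 CPM), leukocytes (284 to 1255 and 189 to 555 CPM) and adipocytes (1.63 to 11.6 and 0.342 to 9.20 CPM) are given as KO-labelled and then WT-labelled ranges, and each pair of ranges overlapped. Their median log2 fold changes were 0.47, 0.65, 1.62 and 0.83 in that order, and none of these markers passed in edgeR. Of 10 leukocyte markers, 9 had a positive log2 fold change and 1 a negative.

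Gper1 transcripts were found in each WT-labelled library and in no KO-labelled one. The gene had 0, 0 and 0 counts in KO-labelled replicates 1, 2 and 3, out of 88111366 counts in all. It had 1751, 2130 and 283 counts in WT-labelled replicates 1, 2 and 3, which is 39.9, 53.6 and 7.77 CPM with a mean of 33.7 ± 23.5 CPM (SD, n = 3). The groups did not overlap, and WT-labelled replicate 2 held 6.90 times the level of WT-labelled replicate 3. With 3 counts set as the floor of each KO-labelled library (at most 0.126 CPM), the mean was at least 316-fold lower there. That bound covers counting error only, because the reads are PCR products without molecular identifiers. Nor does it cover the spread between WT-labelled libraries: as log2 it was -8.3 with all libraries and -7.74 without WT-labelled replicate 2.

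Gper1 (ENSMUSG00000053647.4) lies on the plus strand of chromosome 5 from 139423151 to 139427800 in GENCODE M21 on GRCm38. Its 3 exonic blocks hold 2537 bases, none shared with another annotated gene. The nearest gene of the table on the side of higher coordinates, Zfand2a, 43.4 kb away, was present in all 6 libraries at 28.6 ± 10.2 CPM in KO-labelled libraries and 8.33 ± 3.54 CPM in WT-labelled libraries (SD, n = 3 each; edgeR log2 fold change 1.78 ± 0.53 SE, adjusted p = 0.122). On the other side, 7.53 kb away, C130050O18Rik had at most 0.170 CPM in KO-labelled libraries and 4.17, 1.41 and 0 CPM in WT-labelled replicates 1 to 3.

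Pericyte markers moved with Gper1: 9 of 14 fell and none rose by edgeR's test, against 1.56% of all tested genes that fell. Without KO-labelled replicate 2, without KO-labelled replicate 3 or without WT-labelled replicate 2, 0 of the 14 passed, where 0, 0 and 1 genes of the whole table passed. Pericytes are the contractile cells that wrap capillaries. All 14 markers of that list were in the table and none was at 0 throughout a group. The log2 fold change was negative for 13 of them and positive for 1. Their summed level was 362, 210 and 428 CPM in KO-labelled replicates 1 to 3 and 6524, 8293 and 3409 CPM in WT-labelled replicates 1 to 3, so that the mean was 18.2-fold lower in KO-labelled libraries. Both Gper1 and this sum were highest in WT-labelled replicate 2 and lowest in WT-labelled replicate 3 among the WT libraries. Single markers of the list did not all share that order. In WT-labelled replicates 1 to 3, Pdgfrb had 473, 886 and 433 CPM, in the order of the sum. Rgs5 had 2291, 1512 and 858 CPM there, highest in replicate 1, and Notch3 97.2, 291 and 164 CPM, lowest in replicate 1. The first markers of the list, Rgs5 and Pdgfrb, were at 87.4 ± 35.2 and 57.3 ± 38.0 CPM in KO-labelled libraries and at 1554 ± 717 and 597 ± 251 CPM in WT-labelled libraries (SD, n = 3 each). In bulk RNA, fewer cells of a type and less RNA per cell cannot be told apart, and the part of pericyte RNA in the Gper1 result was not tested.

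**Figure D1:**
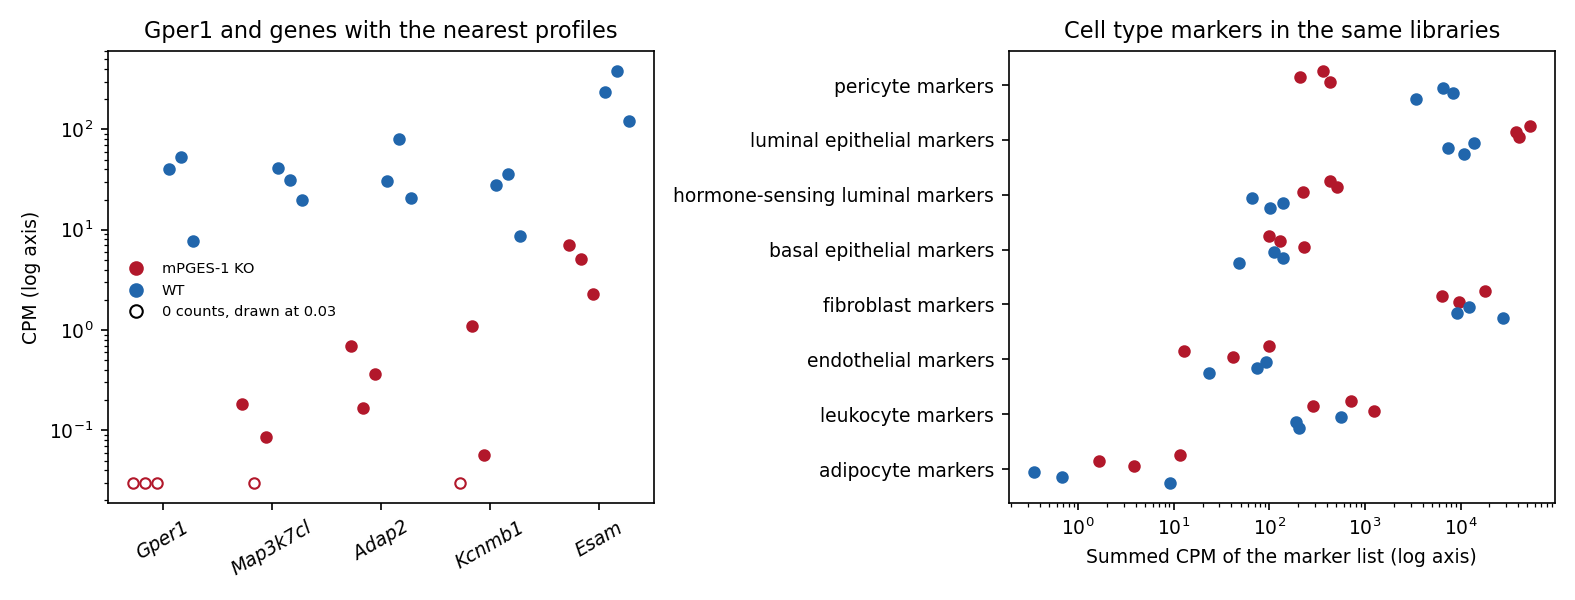
Left, CPM on a log axis of Gper1 and 4 genes with near profiles, 1 point per library (red, mPGES-1 KO; blue, WT; open, 0 counts). Right, summed CPM of 8 marker lists in the same libraries: pericyte sums lie at 210 to 428 CPM in KO-labelled libraries and at 3409 to 8293 CPM in WT-labelled libraries, while fibroblast sums overlap.

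Esr1 differed widely between libraries of the same label. It had 36.2, 21.9 and 3.60 CPM in KO-labelled replicates 1 to 3 (990, 523 and 127 counts). In WT-labelled replicates 1 to 3 it had 4.35, 5.43 and 18.5 CPM (191, 216 and 673 counts). The groups overlapped: KO-labelled replicate 3 was the lowest of the 6 libraries, and WT-labelled replicate 3 lay near KO-labelled replicate 2. The means were 20.6 ± 16.3 CPM in KO-labelled libraries and 9.42 ± 7.86 CPM in WT-labelled libraries (SD, n = 3 each). The log2 fold change of 1.13 ± 0.91 (SE) was 0.44 without KO-labelled replicate 1 and 2.07 without WT-labelled replicate 3.

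Pgr had the lowest mean level per kilobase of the nuclear receptors, and the widest range between KO-labelled libraries. It had 8, 258 and 5 counts in KO-labelled replicates 1 to 3, or 0.293, 10.8 and 0.142 CPM. It had 86, 112 and 0 counts in WT-labelled replicates 1 to 3, or 1.96, 2.82 and 0 CPM. Within KO-labelled libraries the highest was thus 76.4 times the lowest, and the groups overlapped. The log2 fold change of 1.23 ± 2.10 (SE) became -2.84 without KO-labelled replicate 2, so no direction can be given for Pgr. Its high library was not the one with the most Esr1: KO-labelled replicate 1 held the most Esr1 reads and 8 Pgr reads.

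Markers of the luminal lineage that Esr1 and Pgr are known for were measured beside them. The summed level of 6 other hormone-sensing luminal markers was 432, 505 and 226 CPM in KO-labelled replicates 1 to 3 and 65.6, 137 and 101 CPM in WT-labelled replicates 1 to 3, all 6 in the table, none at 0 throughout a group, and 1 of them, Prlr, higher by edgeR's test (0 without any 1 library other than WT-labelled replicate 1). With a library left out, 0 to 568 genes of the whole table passed. Prlr and Cited1 had the highest mean levels of the 6 markers in KO-labelled libraries, though not the highest in each of them. The log2 fold change was positive for 4 and negative for 2, Tbx3 at -1.47 ± 0.86 and Fxyd2 at -0.53 ± 0.54 (SE), whose groups overlapped. The first of them, Foxa1, the pioneer factor that opens chromatin for oestrogen receptor, had 33.8, 27.9 and 20.3 CPM in KO-labelled libraries and 0, 9.76 and 1.26 CPM in WT-labelled libraries (edgeR adjusted p = 0.376). The 3 KO-labelled libraries had the highest sums, whereas Esr1 in KO-labelled replicate 3 was below every WT library. The part of epithelial RNA in the Esr1 and Pgr values was not tested.

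Esr1 (ENSMUSG00000019768.16) lies on the plus strand of chromosome 10 from 4611593 to 5005614, with 19 exonic blocks of 13661 bases. Pgr (ENSMUSG00000031870.16) lies on the plus strand of chromosome 9 from 8899833 to 8968611, with 8 blocks of 8546 bases. Neither shares exonic bases with another annotated gene. Isoforms of Esr1, which has several starts, are summed in a count per gene.

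**Figure D2:**
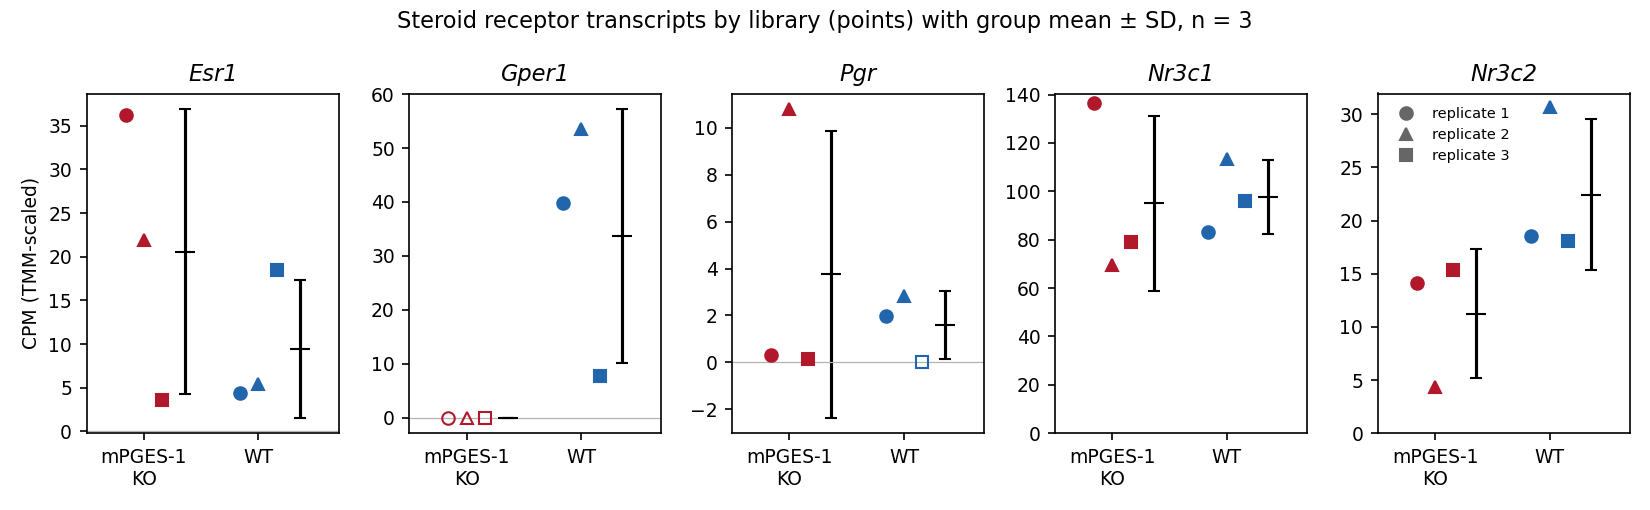
CPM of each receptor by library on linear axes (red, mPGES-1 KO; blue, WT; symbol shape, replicate number, which was not taken to pair the groups; open, 0 counts), with the group mean ± SD in black. Gper1 is at 0 in all 3 KO-labelled libraries, and Nr3c1 is the most even receptor, at 69.6 to 136.5 CPM over all 6.

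Nr3c1 was the steadiest receptor. It had 136.5, 69.6 and 78.9 CPM in KO-labelled replicates 1 to 3 and 83.0, 113.5 and 96.0 CPM in WT-labelled replicates 1 to 3. The WT values lay inside the range of KO-labelled libraries. The means were 95.0 ± 36.3 CPM in KO-labelled libraries and 97.5 ± 15.3 CPM in WT-labelled libraries (SD, n = 3 each). The log2 fold change was -0.04 ± 0.32 (SE), and its sign changed between settings: it was -0.39 when KO-labelled replicate 1 was left out, and 0.17 when replicate 2 of that label was. The highest of the 6 libraries held 1.96 times the level of the lowest. Nr3c1 (ENSMUSG00000024431.15), at 39410545 to 39519421 on the minus strand of chromosome 18, has 13 exonic blocks of 7684 bases.

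Nr3c2, the second corticosteroid receptor, was lower in KO-labelled libraries in each comparison of single libraries. It had 14.1, 4.32 and 15.3 CPM in KO-labelled replicates 1 to 3 and 18.6, 30.6 and 18.1 CPM in WT-labelled replicates 1 to 3. The groups did not overlap, although KO-labelled replicate 3 and WT-labelled replicate 3 lay close together. The means were 11.3 ± 6.04 CPM in KO-labelled libraries and 22.4 ± 7.10 CPM in WT-labelled libraries (SD, n = 3 each). The log2 fold change was -0.99 ± 0.59 (SE) and became -0.59 without KO-labelled replicate 2 and -0.65 without WT-labelled replicate 2. Nr3c2 (ENSMUSG00000031618.13) lies on the plus strand of chromosome 8 from 76899442 to 77245012. It has 13 exonic blocks of 6474 bases, of which 3.82% are shared with Gm10649 on the opposite strand, and the reads hold no strand.

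Counted over the family, 2 of the 5 receptors, Gper1 and Nr3c2, had groups that did not overlap, both lower in KO-labelled libraries. The same held in either direction for 27.9% of all tested genes, and for 15.7% in the lower direction. By edgeR's quasi-likelihood test over all genes, 1 of the 5, Gper1, was past an adjusted p of 0.05, as were 2.76% of all tested genes (1.2% in the higher and 1.56% in the lower direction). The receptors were picked with this comparison known, so nothing is read from these counts.

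Per kilobase of exon, Gper1 was last in every KO-labelled library and first or second in every WT-labelled one. Nr3c1 led in KO-labelled replicates 1, 2 and 3, with 17.8, 9.06 and 10.3 CPM per kilobase. In WT-labelled replicates 1 and 2, Gper1 led with 15.7 and 21.1 CPM per kilobase, above Nr3c1 at 10.8 and 14.8. In WT-labelled replicate 3, Nr3c1 led with 12.5 and Gper1 followed with 3.06 CPM per kilobase. Nr3c2 was at 2.18, 0.667 and 2.37 CPM per kilobase in KO-labelled replicates 1 to 3 and at 2.87, 4.73 and 2.80 in WT-labelled replicates 1 to 3. Esr1 had 2.65, 1.60 and 0.263 CPM per kilobase in KO-labelled replicates 1 to 3 and 0.318, 0.398 and 1.35 in WT-labelled replicates 1 to 3. Pgr was last in all 3 WT libraries, and above Nr3c2 in KO-labelled replicate 2 alone, at 1.27 against 0.667 CPM per kilobase.

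The 10 pairs of receptors were compared within libraries by an exact two-sided sign-flip permutation test on log2 levels per kilobase, with 0.5 CPM added before the log. With 6 libraries its smallest p is 0.03125. This was reached by 4 pairs that had the same order in 6 of 6 libraries: Nr3c1 above Esr1, above Pgr and above Nr3c2, and Esr1 above Pgr. None passed after adjustment over the 10 pairs (adjusted p = 0.0781 for each of the 4). A pair at the smallest p can pass this adjustment only if enough other pairs reach it too. No pair with Gper1 had the same order in 6 of 6 libraries, and the pairs without it are too few. No pair could thus pass, so the adjusted p says nothing about the order. On that scale, Nr3c1 minus Nr3c2 averaged 2.39 ± 0.76, Esr1 minus Nr3c1 -3.92 ± 1.25, Pgr minus Nr3c1 -5.95 ± 1.91 and Esr1 minus Pgr 2.03 ± 2.18 (SD over 6 libraries). The added 0.5 CPM shortens the distances of receptors near 0: with no offset and 0 counts set to the floor of 3 counts, an alternative chosen after seeing the data, Pgr minus Nr3c1 was -7.09, Esr1 minus Pgr 3.08 and Nr3c1 minus Nr3c2 2.44, and the same 4 pairs had the adjusted p of 0.0781. Esr1 and Nr3c2 are neighbours whose order was not fixed: Esr1 was higher in 2 of 3 KO-labelled libraries and in 0 of 3 labelled WT. Esr1 and Gper1 had opposite orders by label: Esr1 was higher in 3 of 3 KO-labelled libraries and in 0 of 3 labelled WT. Esr1 minus Gper1 averaged 2.48 in KO-labelled and -4.11 in WT-labelled libraries with the offset, and 4.64 and -4.18 with the floor in its place. Only its average over both labels had no stable sign. That average was -0.82 with the offset, 0.23 with the floor in its place and 0.29 with the offset and the longest transcript as length. With a library left out it was -1.73 to 0.14.

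**Figure D3:**
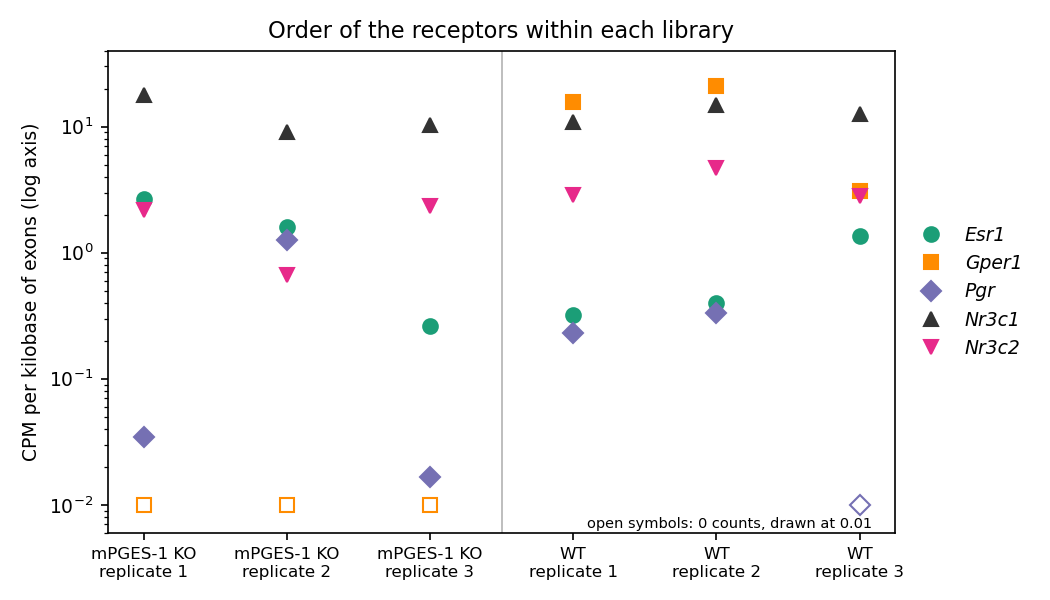
Level of each receptor in each library, in CPM per kilobase of exonic sequence on a log axis, mPGES-1 KO libraries left and WT libraries right (open symbols, 0 counts). Nr3c1 leads in 3 of 3 KO-labelled libraries, and Gper1 leads in WT-labelled replicates 1 and 2 at 15.7 and 21.1 CPM per kilobase.

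Genes with the most similar profiles were sought among 10932 tested genes that averaged 5 CPM or more (Gm and Rik symbols left out), by the mean absolute difference of log2 (CPM + 0.5) from each gene's own mean over the 6 libraries. For Gper1 the nearest included Map3k7cl, Adap2, Kcnmb1 and Esam, at mean differences of 0.45 to 0.57. Map3k7cl, for example, had 0.183, 0 and 0.0850 CPM in KO-labelled replicates 1 to 3 and 41.1, 31.4 and 19.8 CPM in WT-labelled replicates 1 to 3. Kcnmb1, a subunit of a calcium-activated potassium channel, had 0, 1.09 and 0.0566 CPM in KO-labelled replicates 1 to 3 and 27.9, 35.6 and 8.70 CPM in WT-labelled replicates 1 to 3. Esam, an adhesion molecule, is itself on the pericyte list. Each of these 4 had counts in at least 2 KO-labelled libraries, unlike Gper1.

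For Nr3c1 the nearest profile was that of Tead1, a transcription factor of the Hippo pathway, at a mean difference of 0.053, followed by Tmem164, Cox7a1, Trak1 and Luc7l3. Tead1 had 70.2, 39.1 and 40.4 CPM in KO-labelled replicates 1 to 3 and 42.8, 61.7 and 47.3 CPM in WT-labelled replicates 1 to 3. For Nr3c2 they were Crtc3, a coactivator of CREB, Fam105a, Igfbp3, Pcdh19 and the membrane progestin receptor gene Paqr7, at 0.15 to 0.23. Esr1 was nearest to Abca3 (0.26), Hip1r, AU041133, Htt and Focad. Pgr had the loosest matches, from Upb1 at 0.57 to Nol10 at 0.68, with the 5-alpha-reductase gene Srd5a1 among them. These are descriptions over 6 libraries that share 2 groups, and they carry no test.

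Genes around the receptors were taken by role in 8 lists of 139 genes, of which 120 were in the table and 119 were tested. Of these, 6 passed the threshold, or 5.04% against 2.76% of all tested genes, 4 higher and 2 lower in KO-labelled libraries. The median log2 fold change of all tested genes was -0.04. None of the 10 tested genes of other steroid-related receptors and none of the 12 genes of steroid metabolism passed in edgeR. At an unadjusted p under 0.05 in edgeR were 4 and 0 of them, against 3157 of all 16543 tested genes. Limma-voom called 3 and 1 of them and DESeq2 1 and 0, against 11.8% and 12.7% of all tested genes. The medians of these lists were -0.16 and 0.25. Pgrmc1, a haem-binding membrane protein linked to progesterone, was the most abundant of the first list at 357 ± 17.7 CPM in KO-labelled libraries and 203 ± 70.2 CPM in WT-labelled libraries (SD, n = 3 each; edgeR adjusted p = 0.193). Hsd11b1, which regenerates active glucocorticoid, was at 87.2 ± 46.0 CPM in KO-labelled libraries and 171 ± 115 CPM in WT-labelled libraries (SD, n = 3 each; edgeR adjusted p = 0.462).

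None of 16 chaperones that hold the receptors ready for hormone passed in edgeR, where 2.76% of all tested genes did. At an unadjusted p under 0.05 in edgeR were 8 of them, against 3157 of all 16543 tested genes. DESeq2 called 4 and limma-voom 7, against 12.7% and 11.8% of all tested genes. Hsp90ab1, the main chaperone of unliganded receptors, had 1351 ± 117 CPM in KO-labelled libraries and 892 ± 101 CPM in WT-labelled libraries (SD, n = 3 each; edgeR adjusted p = 0.252). Of 22 coregulators and pioneer factors, 1 fell and none rose in edgeR, where DESeq2 and limma-voom each called the same gene lower and 2 others, Ddx5 and Gata3, higher. The one that fell was Prmt1, an arginine methyltransferase recruited by nuclear receptors, at 54.9, 30.7 and 19.5 CPM in KO-labelled replicates 1 to 3 and 120.3, 183 and 160 CPM in WT-labelled replicates 1 to 3 (edgeR log2 fold change -2.14 ± 0.42 SE, adjusted p = 0.0444). The helicase coactivator Ddx5 had 1160 ± 120.0 CPM in KO-labelled libraries and 509 ± 44.4 CPM in WT-labelled libraries, and lay just outside the threshold (SD, n = 3 each; edgeR adjusted p = 0.0509). It passed as higher in edgeR with DESeq2 size factors, with no filter and with a filter of 1 CPM.

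Among target genes, 1 of 15 oestrogen and progesterone targets rose and none of 20 glucocorticoid targets passed in edgeR. Over all tested genes, 2.76% passed in that test. At an unadjusted p under 0.05 in edgeR were 4 of the 15 and 8 of the 20, against 3157 of all 16543 tested genes. Of 11 mineralocorticoid targets, 1 rose and 1 fell in edgeR (3 at an unadjusted p under 0.05), and 2 rose and 1 fell in DESeq2 and in limma-voom. Prlr, the prolactin receptor, had 179, 293 and 94.3 CPM in KO-labelled replicates 1 to 3 and 32.0, 28.8 and 23.7 CPM in WT-labelled replicates 1 to 3 (edgeR log2 fold change 2.74 ± 0.43 SE, adjusted p = 0.028). Prlr is also one of the 6 hormone-sensing luminal markers. Greb1, a target that follows oestrogen receptor closely in breast cancer cells, had 0 to 3.38 CPM in all 6 libraries. Nedd4l, a ubiquitin ligase of the epithelial sodium channel, had 129 ± 28.9 CPM in KO-labelled libraries and 26.4 ± 6.66 CPM in WT-labelled libraries (SD, n = 3 each; edgeR adjusted p = 0.0197). The glucocorticoid targets had a median of 0.14, with 11 positive and 9 negative. The 2 most abundant of them, Anxa1, an anti-inflammatory annexin, and Nfkbia, the inhibitor of NF-kB, had log2 fold changes of 0.91 ± 0.37 and 1.42 ± 0.37 (SE; edgeR adjusted p = 0.236 and 0.0889), with KO-labelled libraries above WT-labelled ones without overlap. Fkbp5, the co-chaperone gene used as a readout of receptor activity, was at 11.4 ± 7.41 CPM in KO-labelled libraries and 41.3 ± 19.6 CPM in WT-labelled libraries, the other way round and also without overlap (SD, n = 3 each; edgeR adjusted p = 0.146). DESeq2 called 2 of the 20 higher and 5 lower, and limma-voom 1 higher and 3 lower, where they called 12.7% and 11.8% of all tested genes.

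Of 17 GPER1 signalling and target genes, 2 rose and none fell by edgeR's test in the libraries where Gper1 had no counts. At an unadjusted p under 0.05 in edgeR were 7 of the 17, against 3157 of all 16543 tested genes. DESeq2 called the same 2 higher and Ctgf lower, and limma-voom the same 2 higher and Ctgf and Gnai2 lower. Of all tested genes, edgeR called 2.76%, DESeq2 12.7% and limma-voom 11.8%. Hbegf, the EGF receptor ligand whose release links GPER1 to that receptor, had 471, 504 and 629 CPM in KO-labelled replicates 1 to 3 and 16.5, 40.8 and 56.1 CPM in WT-labelled replicates 1 to 3 (edgeR log2 fold change 3.82 ± 0.48 SE, adjusted p = 0.0171). Vegfa, the angiogenic growth factor, had 179 ± 96.0 CPM in KO-labelled libraries and 39.8 ± 6.68 CPM in WT-labelled libraries (SD, n = 3 each; edgeR adjusted p = 0.0383). The early gene Fos, induced through GPER1 in cancer cells, was at 6006 ± 1349 CPM in KO-labelled libraries and 6378 ± 853 CPM in WT-labelled libraries (SD, n = 3 each; edgeR adjusted p = 0.921). Ctgf, another such target, was at 58.2 ± 33.8 CPM in KO-labelled libraries and 395 ± 337 CPM in WT-labelled libraries (SD, n = 3 each; edgeR adjusted p = 0.0765). The median of the list was -0.25.

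The 6 calls changed when single libraries were left out. Without KO-labelled replicate 2, without KO-labelled replicate 3 and without WT-labelled replicate 2, 0 of the 6 passed. In those fits 0, 0 and 1 genes of the whole table passed, against 456 with no library left out. Without KO-labelled replicate 1 and without WT-labelled replicate 3, 2 of the 6 passed, where 160 and 150 genes of the whole table did. Without WT-labelled replicate 1, 4 of the 6 passed, and 568 genes of the whole table. All 6 kept their direction in each of these fits. The same libraries differed in epithelial and pericyte markers, and 9 of 10 leukocyte markers had a positive log2 fold change, as given above. The part of these cell types in the 6 genes was not tested.

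**Figure D4:**
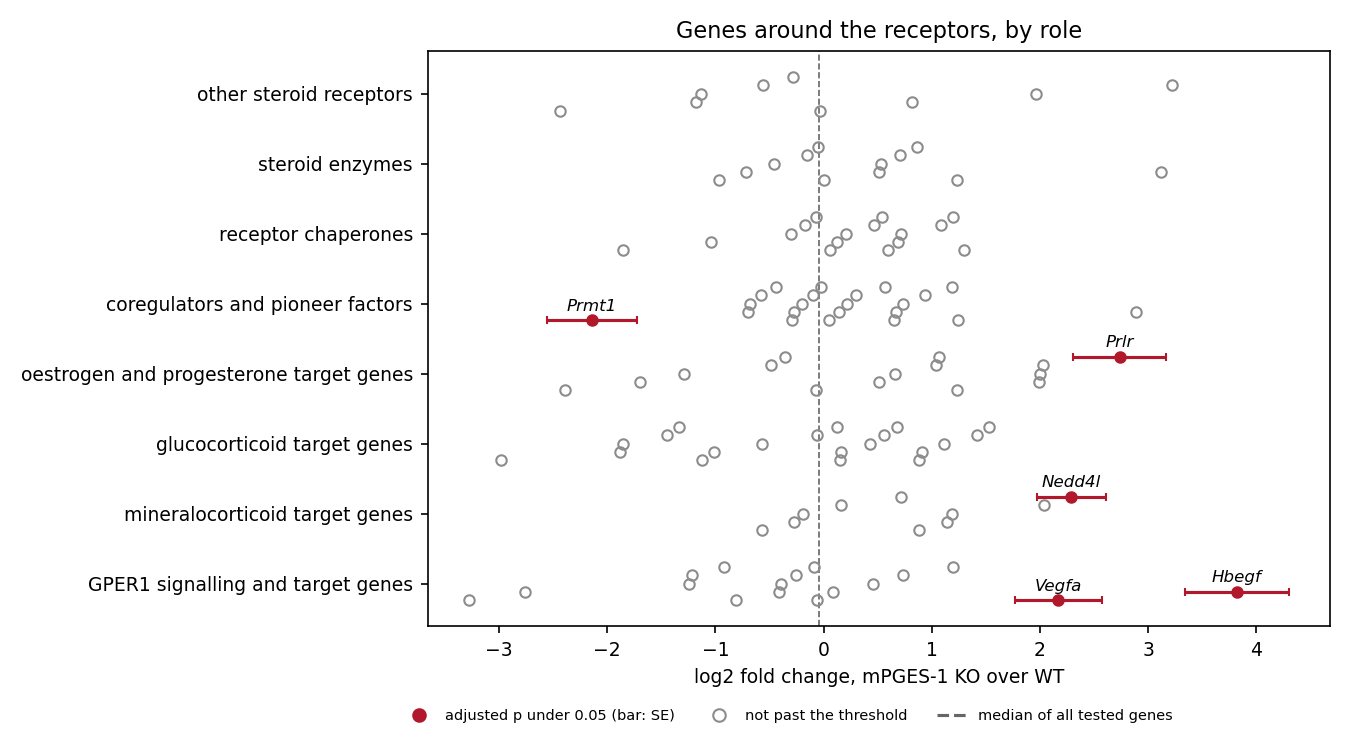
log2 fold change (mPGES-1 KO over WT) of tested genes of 8 lists, ordered by role. Red points passed an adjusted p of 0.05 and carry their SE, grey circles did not, and the dashed line is the median of all tested genes at -0.04: 4 named genes lie to the right of it and Prmt1 to the left.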

How the data were processed

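RNA was measured in 6 libraries, 3 labelled mPGES-1 KO and 3 labelled WT. Per the labels' protocols, cDNA from the sorted cells was made with an ultra-low input kit, amplified by 16 PCR cycles and sequenced as single reads of 75 cycles. FastQC 0.11.5, STAR and mm10 appear in the submitters' processing notes. Which program and annotation made the counts is not given in the sources used here. A kit of this kind does not mark the strand of a transcript. The authors deposited unnormalised counts of reads for each gene symbol, without molecular identifiers. Each symbol had at least 11 counts in some library.

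The test was edgeR 4.0.16 under R 4.3.3 (filterByExpr, TMM, robust quasi-likelihood, two-sided, Benjamini-Hochberg over 16543 genes, called at an adjusted p under 0.05). The common dispersion, as a biological coefficient of variation, was 0.818. The fit was tested on simulated counts. Depth was 23013498 to 43648450 counts. Standard errors are the absolute log2 fold change over the square root of F. Alternatives used DESeq2 1.42.0, limma-voom from limma 3.58.1, other scalings and filters, the replicate number as a block, and each library left out. Positions and lengths come from GENCODE M21, in which 17688 symbols were found. Named genes were taken from the receptors, Ptges, every called gene of a list and its 2 most abundant uncalled genes, the 5 nearest profiles, and the first 2 markers of a list; Fkbp5, Greb1, Ctgf, Gnai2, Gata3, Thy1, Tbx3, Fxyd2, Csn3, Krt18, Zfand2a and C130050O18Rik were added after their values were seen. The receptors and all lists were chosen with earlier results of these data known. Some genes that the rule names are counted but not reported here.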

Additional observations from a re-analysis of the deposited data

How the results depend on the processing

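The 5 receptors' log2 fold changes moved by less than the spread between libraries under 13 alternatives, except Pgr, which was -2.84 without KO-labelled replicate 2. Leaving out single libraries gave 0.44 to 2.07 for Esr1, -2.84 to 2.01 for Pgr, -0.39 to 0.17 for Nr3c1, -1.28 to -0.59 for Nr3c2 and -8.78 to -7.74 for the bound on Gper1. In the order of levels averaged over both labels, only the pair Esr1 minus Gper1, whose order was opposite by label, changed sign. Its average was 0.29 with the longest transcript as length, 0.23 with 0 counts set to 3 counts in place of the offset, and -1.73 to 0.14 with a library left out. The number of genes called, 456, became 2108 with DESeq2 and 1944 with limma-voom, and 0 to 568 with a library left out: 0 without KO-labelled replicate 2 or 3 (2574 and 2975 at an unadjusted p under 0.05), 1 without WT-labelled replicate 2, 150 without WT-labelled replicate 3, 568 without WT-labelled replicate 1 and 160 without KO-labelled replicate 1. With the replicate number as a block, edgeR called 0 genes (2716 at an unadjusted p under 0.05), and each list 0. Same-numbered libraries did not deviate together (correlations of deviations -0.063, 0.028 and -0.017), so the numbers were not taken as pairs. With so few libraries a group, these correlations cannot exclude a pairing.

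Counts of called genes per list moved as follows. DESeq2 called 12.7% of all tested genes and limma-voom 11.8%. DESeq2 called 1 gene of the list of other receptors, 4 chaperones, 3 coregulators, 2 oestrogen and progesterone targets, 7 glucocorticoid targets, 3 mineralocorticoid targets and 3 GPER1 genes. Limma-voom called 3 genes of the list of other receptors, 1 gene of steroid metabolism, 7 chaperones, 3 coregulators, 4 glucocorticoid targets, 3 mineralocorticoid targets and 4 GPER1 genes. DESeq2 size factors and no filter each gave 2 coregulators and 1 mineralocorticoid target, library size scaling 1 mineralocorticoid target, and a filter of 1 CPM in 3 libraries 1 chaperone, 2 coregulators and 3 mineralocorticoid targets. With a library left out the counts were 0 to 1 for genes of steroid metabolism, chaperones, coregulators, oestrogen and progesterone targets and GPER1 genes. They were 0 to 2 for mineralocorticoid targets, and 0 in each such fit for glucocorticoid targets and the list of other receptors. The small log2 fold changes of Fos and Hsd17b10 changed sign with a library left out, over -0.28 to 0.04 and -0.30 to 0.07: Fos was at 0.04 without KO-labelled replicate 1, 0 without KO-labelled replicate 2 and 0.01 without WT-labelled replicate 3, and Hsd17b10 at 0.07 without WT-labelled replicate 3. The cause was not tested. A gene at 0 in a library could hold up to 0.0683 to 0.126 CPM at these depths.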
